A study of Ovis aries with 12 samples.

Results

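The 43 genes described here encode the receptors for glutamate at synapses, the auxiliary subunits that bind them and the scaffold proteins that hold them in place. They were listed by gene symbol, the rule uses no measured value, and the list was drawn up with earlier results of these data known. All 43 were present among the 33609 genes of the count table and among the 17806 genes with counts high enough to be tested. The set holds 4 AMPA, 5 kainate, 6 NMDA and 1 delta receptor subunit, 6 metabotropic receptors, 9 auxiliary subunits of AMPA receptors, 2 of kainate receptors and 10 scaffolds. The animals were adult ewes of the Ile-de-France breed, and their RNA was sequenced in 4 groups of 3 libraries, namely dorsal hippocampus of chronically stressed ewes, dorsal hippocampus of control ewes, ventral hippocampus of stressed ewes and ventral hippocampus of control ewes. The labels name no genotype, drug or time point for any group, nor do the sources used here give the nature and length of the stress. Each library pooled the RNA of 2 ewes, and both regions came from the same 12 ewes, 6 stressed and 6 control. Whether the dorsal samples held the whole dorsal pole or its dentate gyrus is not stated.

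Glutamate is the main excitatory transmitter of the hippocampus. AMPA receptors carry most of the fast synaptic current, NMDA receptors admit calcium when transmitter release and depolarisation coincide and so start many forms of synaptic plasticity, and kainate receptors tune release and excitability. Metabotropic glutamate receptors act through G proteins, and those of group III (GRM4, GRM7 and GRM8) sit mostly on axon terminals, where they curb release. Transmembrane AMPA receptor regulatory proteins, cornichons and Shisa proteins set the traffic and gating of AMPA receptors, NETO proteins do so for kainate receptors, and the DLG, SHANK and HOMER families tie receptors to the postsynaptic density.

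Levels are given in CPM, the count of a gene scaled to a library of 1000000 counts with TMM factors, and they depend on gene length, so they are compared between libraries and not between genes. Library totals ran from 12254743 to 53775720 counts, and each dorsal library of stressed ewes was shallower than each dorsal library of control ewes. Pan-neuronal markers summed to 5100 to 6443 CPM in dorsal and 4934 to 6104 CPM in ventral libraries, with no gene called of 6. Excitatory neuron markers summed to 3794 to 4647 CPM in dorsal and 2435 to 3308 CPM in ventral libraries, which did not overlap, and 3 of 7 were called, all higher in dorsal. Inhibitory neuron markers summed to 453.2 to 503.6 CPM in dorsal and 489.1 to 603.7 CPM in ventral libraries, with 1 of 9 called higher and 4 lower. Oligodendrocyte markers summed to 6481 to 10640 CPM in dorsal and 3691 to 8142 CPM in ventral libraries, with all 6 values above 0 and 1 called. Dentate granule cell markers summed to 33.4 to 80.7 CPM in dorsal and 51.5 to 118.0 CPM in ventral libraries, and 2 of 5, DSP and PDZD2, were called lower in dorsal, while PROX1 lay above 0 and was not called. SST, which defines a class of interneurons, was at 0 in all libraries, while PVALB and VIP of the same list had counts in every library. Whether reads of SST were missed in counting was not tested, so the 0 is not read as absence of these cells. Markers of neighbouring tissue differed between the regions. Choroid plexus markers summed to 507.3 to 2993 CPM in dorsal and 164.0 to 546.4 CPM in ventral libraries (3 of 9 called, all higher in dorsal), and meningeal fibroblast markers to 140.8 to 222.1 CPM in dorsal and 326.4 to 566.9 CPM in ventral libraries (5 of 6 called, all lower in dorsal). Subiculum markers summed to 21.4 to 36.8 CPM in dorsal and 86.6 to 142.2 CPM in ventral libraries (3 of 4 called, all lower in dorsal), and thalamus markers to 51.3 to 87.4 CPM in dorsal and 79.4 to 255.7 CPM in ventral libraries (2 of 5 called, both lower in dorsal). The libraries of a group also differed among themselves along a common axis that held 66.1% of the variance within groups, with libraries 1 and 3 of the ventral control group at its ends.

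Dorsal and ventral hippocampus differed in 3 of the 43 genes, the metabotropic receptors GRM8 and GRM4 and the NMDA receptor subunit GRIN2C, all of them lower in the dorsal region by about 3- to 4-fold. None of the 43 was called higher in dorsal tissue. Calls rest on edgeR's quasi-likelihood F test, with p-values adjusted over the whole table by the method of Benjamini and Hochberg and a threshold of 0.05. By that rule 4.51% of all tested genes were called over both conditions, 1.44% higher and 3.07% lower in dorsal tissue. In the glutamate receptor set the share was 6.98%, close to this background. At an unadjusted p under 0.05 the set had 18 of 43 genes, against 13.7% of all tested genes. The regions did not overlap for 5 of the 43 genes, GRM8, GRM4 and GRIN2C below and GRIN2A and SHISA6 above, against 4.9% of all genes. The direction was mixed, with 20 of 43 log2 fold changes above 0 and 47.3% over all genes.

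GRM8, a group III metabotropic receptor of axon terminals, had 4.88, 7.65 and 10.8 CPM in dorsal libraries 1 to 3 of stressed ewes and 5.53, 7.42 and 7.97 CPM in dorsal libraries of control ewes. It had 18.0, 29.8 and 32.3 CPM in ventral libraries of stressed ewes and 15.2, 32.2 and 39.0 CPM in ventral libraries of control ewes. Every dorsal library lay below every ventral one, in both conditions. The log2 fold change, dorsal over ventral, was -1.92 ± 0.29 (SE; 95% confidence interval -2.55 to -1.28), a 3.78-fold lower level in dorsal tissue (edgeR adjusted p = 0.00462). Subiculum, meningeal and thalamus markers were lower and excitatory neuron markers higher in dorsal libraries, and their part in the differences between regions was not tested. In bulk tissue, fewer cells of a type and less RNA per cell cannot be told apart, and this holds for each gene below.

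GRM4, a receptor of the same group, had 5.03, 2.89 and 2.13 CPM in dorsal libraries of stressed ewes and 3.21, 2.83 and 3.79 CPM in dorsal libraries of control ewes. It had 9.21, 15.4 and 7.10 CPM in ventral libraries of stressed ewes and 16.8, 15.1 and 6.11 CPM in ventral libraries of control ewes. All 6 dorsal libraries lay below all 6 ventral ones, and the third ventral library was the lowest of its group in both conditions. The fold change was -1.80 ± 0.32 on the log2 scale, or 3.48-fold lower in dorsal tissue (edgeR adjusted p = 0.0110). In a fit that included a choroid plexus score for each library it shrank to -0.57 ± 0.45 and was no longer called (edgeR adjusted p = 0.339), whereas GRM8 stayed called at -2.85 ± 0.41 (edgeR adjusted p = 0.0246). That score, the mean log2 CPM of the markers, ran from 1.97 to 3.52 in dorsal and from 1.43 to 2.23 in ventral libraries. The score thus largely followed region, but did not rank the libraries as the summed choroid plexus CPM did. Ventral control 1 had the highest ventral sum, 546.4 CPM, and the lowest score of all libraries, 1.43. Values from fits with this score, here and below, are therefore not values at equal choroid plexus content. The part of choroid plexus tissue in the difference was not tested further. GRM7, the remaining group III receptor, was not called (-1.54 to 1.99 as the 95% interval of the log2 fold change).

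GRIN2C, an NMDA receptor subunit best known in rodents from cerebellar granule cells, was close to the limit of detection. Its raw counts were 11, 5 and 5 in dorsal libraries of stressed ewes and 29, 23 and 7 in dorsal libraries of control ewes, against 20, 37 and 38 in ventral libraries of stressed ewes and 81, 20 and 33 in ventral libraries of control ewes. In CPM these were 0.253 to 0.571 in dorsal and 0.774 to 1.95 in ventral libraries, with no overlap. The log2 fold change of -1.48 ± 0.36, or 2.78-fold lower in dorsal tissue, was called narrowly (edgeR adjusted p = 0.0449). The call was lost when any 1 of 11 of the 12 libraries was left out, with a highest edgeR adjusted p of 0.129, and the exception was ventral control 3. In the fit that included the choroid plexus score the value was -0.80 ± 0.67 (edgeR adjusted p = 0.365). Cerebellar markers summed to 29.1 to 130.3 CPM in dorsal and 113.2 to 322.4 CPM in ventral libraries, none of them called. Most of each sum was CALB2, at 24.0 to 126.0 CPM in dorsal and 104.2 to 309.8 CPM in ventral libraries. PCP2 did not exceed 1.08 CPM, and GABRA6, which defines cerebellar granule cells, was at 0 in 11 of 12 libraries.

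**Figure D1:**
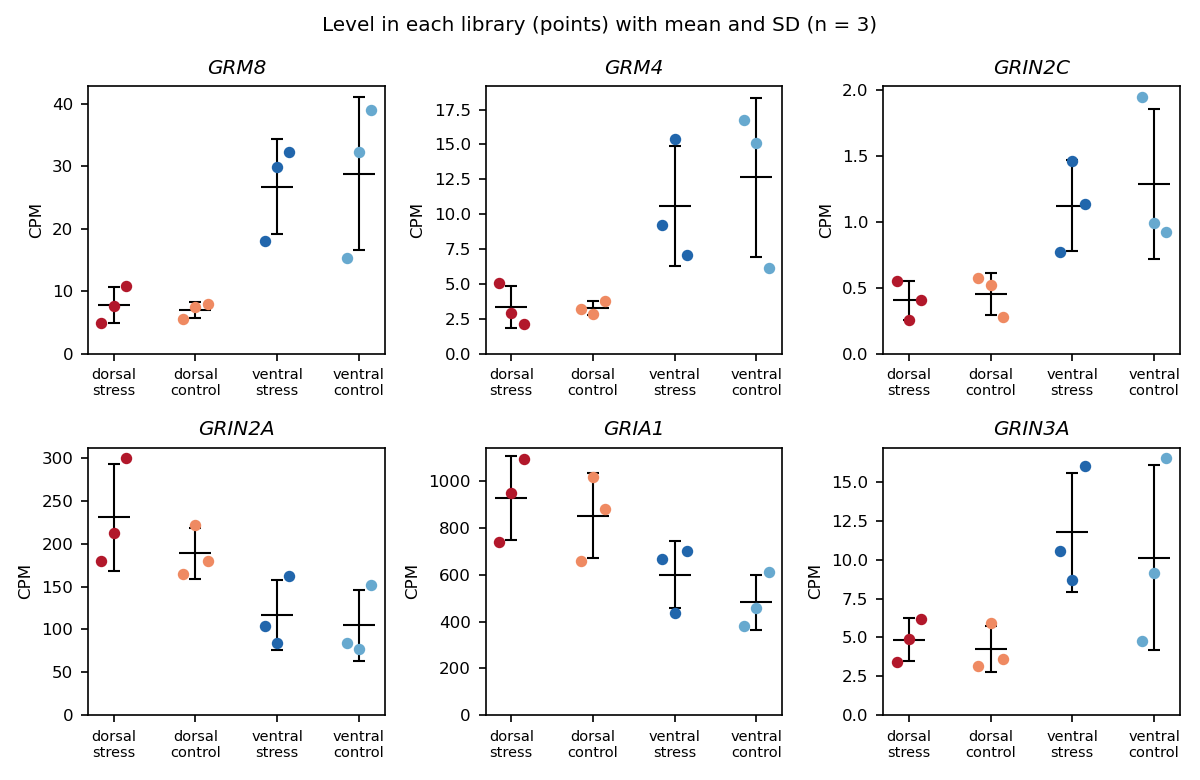
Levels of GRM8, GRM4, GRIN2C, GRIN2A, GRIA1 and GRIN3A in CPM on the vertical axes, 1 point per library, with the mean and SD of each group of 3 libraries. Dorsal libraries lie below all ventral ones for GRM8, GRM4 and GRIN2C and above all of them for GRIN2A, while the 2 regions overlap for GRIA1 and GRIN3A.

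Of the remaining NMDA receptor subunits none was called. GRIN2A, the subunit that takes over from GRIN2B as rodent synapses mature, came nearest. It had 179.9, 212.2 and 300.6 CPM in dorsal libraries of stressed ewes and 164.9, 222.2 and 180.0 CPM in dorsal libraries of control ewes. In ventral libraries it had 104.3, 83.8 and 162.5 CPM in stressed ewes and 84.5, 77.4 and 152.2 CPM in control ewes. Every dorsal library lay above every ventral one, by a narrow margin at ventral stress 3. Its log2 fold change of 0.92 ± 0.23 missed the threshold (edgeR adjusted p = 0.0531), and GRIN2A was called by DESeq2 (adjusted p = 0.00431), by limma-voom (adjusted p = 0.0441) and in 7 of the 23 alternatives in all. Without ventral control 3 it was 1.10 (edgeR adjusted p = 0.0164), without ventral stress 3 it was 1.07 (edgeR adjusted p = 0.0376), and in the fit that included the choroid plexus score 0.14 ± 0.29 (edgeR adjusted p = 0.722).

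GRIN1, the subunit that every NMDA receptor needs, had 422.9, 295.6 and 290.3 CPM in dorsal libraries of stressed ewes and 302.5, 275.5 and 288.2 CPM in those of control ewes. Its ventral levels were 316.5, 260.8 and 200.6 CPM in stressed and 367.2, 227.8 and 130.3 CPM in control ewes. The ventral control libraries alone spanned more than the whole dorsal range. The regions differed by 0.32 ± 0.23 on the log2 scale (edgeR adjusted p = 0.760).

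GRIN2B, the subunit of slower NMDA currents, had 41.2, 13.6 and 18.1 CPM in dorsal libraries of stressed ewes and 30.0, 11.9 and 14.0 CPM in those of control ewes. Its ventral levels were 14.3, 19.4 and 17.2 CPM in stressed and 39.9, 12.4 and 15.6 CPM in control ewes. Library 1 stood highest in every group except ventral stress. The log2 fold change was 0.12 ± 0.38, with a 95% interval of -0.72 to 0.97. GRIN3A, a subunit that lowers calcium entry, had 3.19 to 6.21 CPM in dorsal and 4.76 to 16.6 CPM in ventral libraries, at a log2 fold change of -1.27 ± 0.33 (edgeR adjusted p = 0.0572). GRIN2D, known in rodents from interneurons and early development, was at -0.37 with a 95% interval of -0.97 to 0.24.

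None of the 4 AMPA receptor subunits was called in the edgeR fit of 4 group means. GRIA1, the subunit whose delivery to synapses accompanies potentiation, had 741.2, 950.7 and 1097 CPM in dorsal libraries of stressed ewes and 659.8, 1020 and 881.1 CPM in dorsal libraries of control ewes. It had 666.2, 436.8 and 701.0 CPM in ventral libraries of stressed ewes and 381.5, 456.3 and 610.5 CPM in ventral libraries of control ewes. Dorsal levels were above ventral ones within each condition, and the regions overlapped once the conditions were joined. The log2 fold change was 0.73 ± 0.19, or 1.65-fold, just short of the threshold (edgeR adjusted p = 0.0562), and GRIA1 was called by DESeq2 (adjusted p = 0.00489) and in 5 of the 23 alternatives in all. Without ventral control 3 it was called at 0.83 (edgeR adjusted p = 0.0354), and in the fit that included the choroid plexus score it was 0.17 ± 0.27 (edgeR adjusted p = 0.638).

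GRIA2, the subunit that keeps AMPA receptors impermeable to calcium, had 153.0, 284.6 and 492.8 CPM in dorsal libraries of stressed ewes and 142.2, 275.8 and 213.2 CPM in those of control ewes. Its ventral levels were 197.2, 180.8 and 513.6 CPM in stressed and 123.0, 160.0 and 540.4 CPM in control ewes. Libraries of 1 group differed by up to 4.39-fold, far more than the regions did. Its log2 fold change was -0.16 ± 0.45 with a 95% interval of -1.15 to 0.82, and it turned positive in 4 of the 23 alternatives, among them 0.32 without ventral control 3. GRIA3 and GRIA4 were at -0.04 ± 0.16 and -0.72 ± 0.40.

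Ratios between subunits within a library describe their balance without scaling between libraries, and because gene length enters them only differences between libraries are read. The log2 ratio of GRIA1 to GRIA2 averaged 1.72 ± 0.56 in dorsal libraries of stressed ewes, 2.05 ± 0.16 in dorsal libraries of control ewes, 1.16 ± 0.66 in ventral libraries of stressed ewes and 1.11 ± 0.81 in ventral libraries of control ewes (SD, n = 3 each). The mean was 0.75 higher in dorsal tissue. The third library was the lowest in 3 of the 4 groups, at 1.15 in dorsal stress, 0.45 in ventral stress and 0.18 in ventral control. The log2 ratio of GRIN2A to GRIN2B averaged 3.38 ± 1.09 in dorsal libraries of stressed ewes and 3.45 ± 0.90 in those of control ewes, against 2.74 ± 0.57 in ventral libraries of stressed ewes and 2.34 ± 1.13 in those of control ewes (SD, n = 3 each). The dorsal mean was 0.88 higher, within the spread of the libraries, with 1.08 in ventral control 1 as the lowest of all 12. The log2 ratio of GRM2 to GRM3, the 2 receptors of metabotropic group II, was 0.54 lower in dorsal tissue, with means of -5.92 ± 0.44 in dorsal stress, -5.30 ± 0.32 in dorsal control, -4.85 ± 0.62 in ventral stress and -5.30 ± 0.83 in ventral control (SD, n = 3 each).

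**Figure D2:**
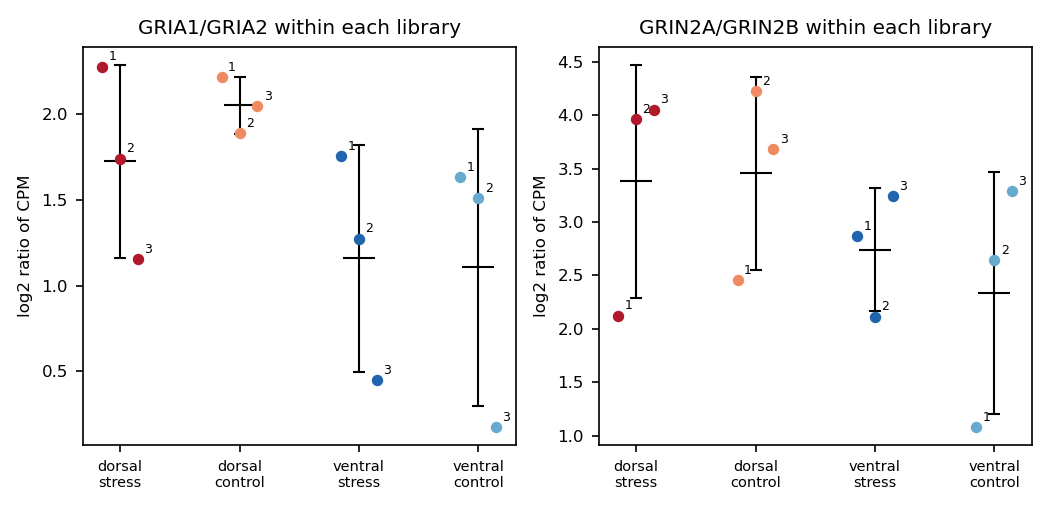
Log2 ratio of GRIA1 to GRIA2 and of GRIN2A to GRIN2B on the vertical axes, 1 point per library, with the mean and SD of each group of 3 libraries. Group means are higher in dorsal libraries for both ratios, and the spread within groups reaches an SD of 1.13.

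Among kainate receptor subunits and their partners 0 of 7 were called. GRIK4, a high-affinity subunit abundant in rodent CA3, had 16.9 to 29.9 CPM in dorsal and 10.8 to 22.9 CPM in ventral libraries, at a log2 fold change of 0.75 ± 0.21 (edgeR adjusted p = 0.0833). GRIK2, a main pore-forming subunit, leaned the other way at -0.58 ± 0.21 (edgeR adjusted p = 0.223). The auxiliary subunits also parted in sign, with NETO1 at 0.70 ± 0.25 and NETO2 at -0.86 ± 0.29, and neither was called (edgeR adjusted p = 0.193 and 0.158). GRIK1, GRIK3 and GRIK5 lay between -0.55 and 0.17, and GRID1, the delta receptor subunit, which binds cerebellins, was at -0.09 with a 95% interval of -0.46 to 0.27.

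Of the metabotropic receptors outside group III, GRM2, an autoreceptor that reduces release, had 1.01 to 2.204 CPM in dorsal and 1.71 to 4.10 CPM in ventral libraries. The regions differed by -0.80 ± 0.26 (log2; edgeR adjusted p = 0.132). GRM3, found on neurons and astrocytes, was at -0.26 ± 0.15, and GRM5, which couples to calcium release and binds HOMER proteins, at -0.22 ± 0.26.

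The 9 auxiliary subunits of AMPA receptors had no called gene and log2 fold changes from -0.75 to 1.52. SHISA6, which keeps AMPA receptors at rodent synapses, had 3.60 to 7.44 CPM in dorsal and 0.447 to 3.52 CPM in ventral libraries, which did not overlap. Its log2 fold change was 1.52 ± 0.42 (edgeR adjusted p = 0.0793). SHISA9, which slows recovery of AMPA receptors from desensitisation in mice, leaned the other way at -0.75 ± 0.21 (edgeR adjusted p = 0.0827). CNIH2, a cornichon that slows AMPA receptor deactivation, had 244.4 to 633.1 CPM in dorsal and 66.9 to 412.8 CPM in ventral libraries, and its log2 fold change of 0.95 ± 0.45 was not called (edgeR adjusted p = 0.396). CACNG8, the regulatory protein best known from the rodent hippocampus, was at 0.82 ± 0.31 (edgeR adjusted p = 0.234), and CACNG2, CACNG3, CNIH3, GSG1L and SHISA7 lay between -0.23 and 0.50.

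None of the 10 scaffolds was called. DLG4, the main scaffold of excitatory postsynapses, had 318.7, 277.2 and 310.6 CPM in dorsal libraries of stressed ewes and 212.1, 242.0 and 244.4 CPM in those of control ewes. Its ventral levels were 243.1, 197.2 and 287.0 CPM in stressed and 228.3, 209.6 and 225.1 CPM in control ewes. The 3 dorsal libraries of stressed ewes were among the 4 highest of the 12. Across both conditions its log2 fold change was 0.20 ± 0.12 (edgeR adjusted p = 0.605). HOMER3 was at 0.71 ± 0.23 (edgeR adjusted p = 0.128), DLG3 at 0.33 ± 0.12 (edgeR adjusted p = 0.199) and DLG1 at -0.82 ± 0.33 (edgeR adjusted p = 0.287). The 95% interval of the log2 fold change lay within 1 unit either way for 6 of the 10 scaffolds and for 18 of all 43 genes. For the other genes the interval reached past a 2-fold difference.

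**Figure D3:**
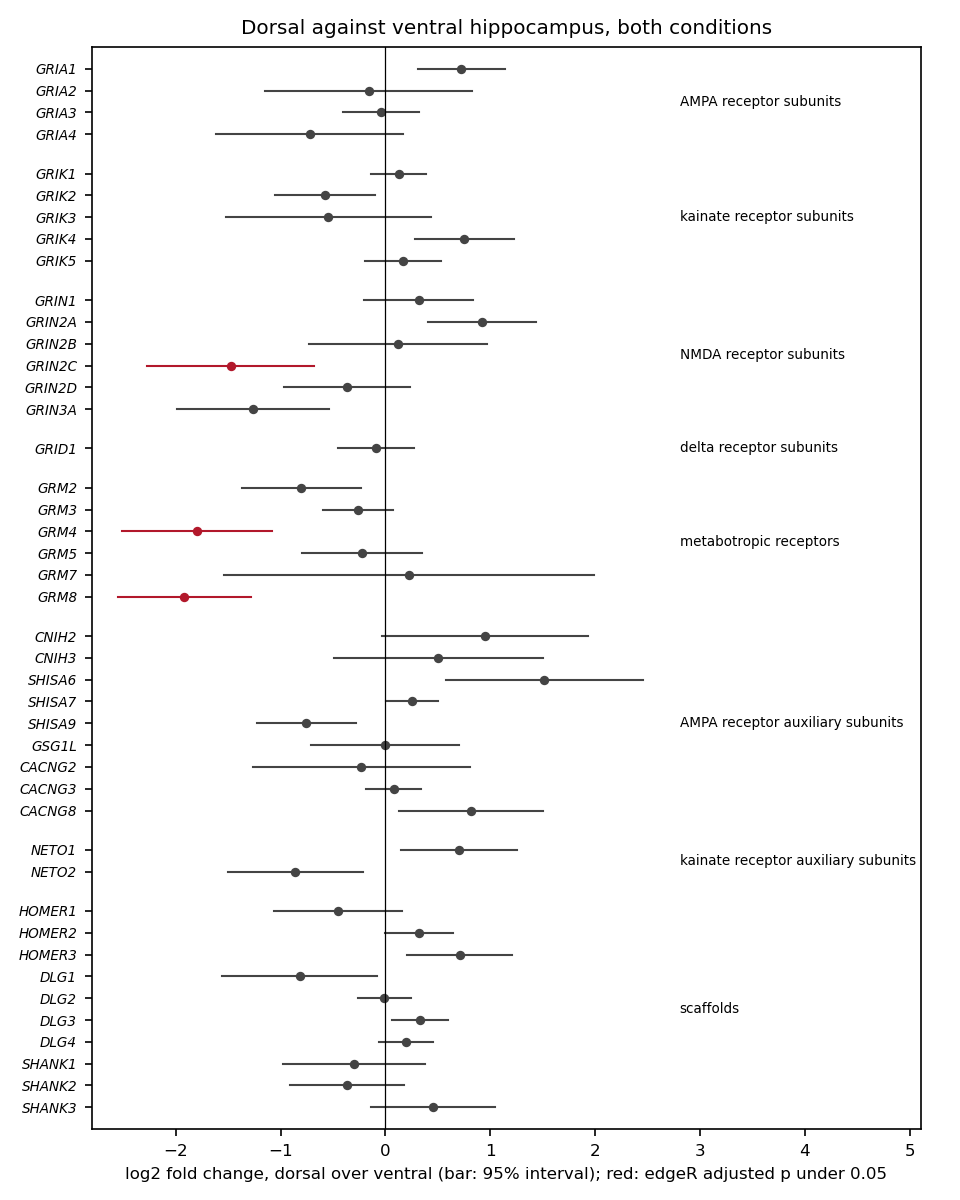
Log2 fold change, dorsal over ventral over both conditions, with its 95% confidence interval for each of the 43 genes, by role; called genes are in red. GRM8 at -1.92, GRM4 at -1.80 and GRIN2C at -1.48 are the called genes, and SHISA6 at 1.52 is the highest value, not called.

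The region comparison within each condition had 3 libraries against 3. In stressed ewes none of the 43 genes was called, with 0.444% of all genes called, and 11 had an unadjusted p under 0.05 in edgeR, against 7.86% of all genes. DESeq2 called 2 of the 43, GRM8 and GRM4. The smallest p values belonged to GRM8 at -1.79 ± 0.41, GRM4 at -1.65 ± 0.46 and GRM2 at -1.22 ± 0.37 (edgeR adjusted p = 0.0997, 0.187 and 0.250). GRM2 had 1.69, 1.01 and 1.80 CPM in dorsal and 4.10, 3.79 and 2.56 CPM in ventral libraries of stressed ewes, with no overlap. In control ewes it had 1.97, 2.204 and 1.64 CPM in dorsal and 3.46, 2.43 and 1.71 CPM in ventral libraries, which overlapped. In control ewes GRM8 was called, at -2.05 ± 0.41 (edgeR adjusted p = 0.0457), 1 gene of 43, where 1% of all genes were called. That call was lost in 10 of the 12 fits that left out 1 library each, with a highest edgeR adjusted p of 0.192, and held without dorsal stress 1 or ventral control 1. GRM4 at -1.95 ± 0.46 and GRIA1 at 0.82 ± 0.26 followed in control ewes (edgeR adjusted p = 0.0906 and 0.258). The regions did not overlap for 14 of the 43 genes in stressed ewes and for 11 in control ewes, against 13.7% and 11.7% of all genes.

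Genes that act with these receptors were read from a list of 66 others, chosen like the set with earlier results of these data known, of which 65 were tested. Between the regions over both conditions 4 of the 65 were called higher and 2 lower in dorsal tissue, against 1.44% higher and 3.07% lower of all genes. SLC17A6, the vesicular glutamate transporter of thalamic and other subcortical neurons, averaged 7.22 ± 4.16 CPM in dorsal libraries of stressed ewes and 3.81 ± 1.62 CPM in those of control ewes, against 43.6 ± 22.8 CPM in ventral libraries of stressed ewes and 45.0 ± 37.1 CPM in those of control ewes (SD, n = 3 each). The difference of -3.08 ± 0.52 (edgeR adjusted p = 0.00778) exceeded that of every receptor, and the gene is also in the thalamus marker list. CBLN4, a secreted synapse organiser, fell by 2.08 on the log2 scale in dorsal against ventral tissue (edgeR adjusted p = 0.0104). NPTX1 and NPTXR, a neuronal pentraxin and the pentraxin receptor, which cluster AMPA receptors from outside the cell, were higher in dorsal tissue, at 1.19 ± 0.20 and 0.64 ± 0.15 (edgeR adjusted p = 0.00692 and 0.0344). CAMK2A, the calcium-activated kinase downstream of NMDA receptors, was at 0.60 ± 0.13 and PPP1R9B, a spine protein that anchors a phosphatase, at 0.53 ± 0.11 (edgeR adjusted p = 0.0265 and 0.0232). CAMK2A is also in the excitatory neuron marker list. In the other 5 comparisons none of the 65 was called.

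Chronic stress gave no called gene in the dorsal hippocampus, neither among the 43 nor among all 17806 tested genes (edgeR, 0% called). At an unadjusted p under 0.05 edgeR had 2 of the 43, CACNG3 and DLG4, against 0.854% of all genes, and DESeq2 called 1 gene in all, not one of the 43. DLG4 averaged 302 ± 22.0 CPM in stressed and 233 ± 18.0 CPM in control ewes (SD, n = 3 each), with no overlap of the libraries given above. Its log2 fold change, stress over control, was 0.38 ± 0.17 (edgeR adjusted p = 1.00). CACNG3, a regulatory protein of AMPA receptors in forebrain neurons, had 113.2, 116.2 and 125.8 CPM in stressed and 74.1, 96.2 and 101.1 CPM in control ewes, at 0.39 ± 0.17 (edgeR adjusted p = 1.00). CNIH3, a cornichon with 9 to 35 raw counts in dorsal libraries, had the next smallest p, at 1.05, 0.963 and 0.736 CPM in stressed and 0.315, 0.787 and 0.508 CPM in control ewes (0.77 ± 0.64).

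The receptors themselves showed no difference that passed the test in dorsal tissue. GRIA1 was at 0.12 ± 0.26, GRIA2 at 0.56 ± 0.63, GRIN1 at 0.22 ± 0.33, GRIN2A at 0.29 ± 0.33 and GRIN2B at 0.38 ± 0.54. GRM8 was at 0.15 ± 0.40, GRM4 at 0.04 ± 0.45 and GRIN2C at -0.19 ± 0.52. For GRIA2 the 95% interval ran from -0.84 to 1.96, so a change of 3-fold was not bounded, whereas for DLG4 it ran from 0.01 to 0.74. Intervals lay within 1 log2 unit either way for 18 of the 43 genes.

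The signs in dorsal tissue were uneven, with 36 of 43 values above 0 and a median of 0.21, against 50.9% and a median of 0.01 over all genes. Of the other glutamate synapse genes 53 of 65 lay above 0. Excitatory neuron markers leaned the same way, summing to 4460, 4206 and 4647 CPM in dorsal libraries of stressed ewes and 3794, 3858 and 3858 CPM in those of control ewes, with no overlap and no marker called. CAMK2A made up most of each sum, at 2670, 2697 and 2986 CPM in stressed and 2279, 2396 and 2359 CPM in control ewes. Each of the other markers overlapped between the groups. CAMK2A and SLC17A7 are also among the 65 genes, and the part of these markers in the lean was not tested. Pan-neuronal sums were 5202, 6042 and 6443 CPM in stressed and 5100, 6244 and 5840 CPM in control ewes. Astrocyte sums leaned lower, at 11750, 14490 and 10980 against 12920, 14880 and 15140 CPM. Choroid plexus sums also leaned lower, at 507.3, 687.2 and 1228 against 2993, 871.4 and 1509 CPM. Each of these lists overlapped between the groups, and its part was not tested. The 43 genes share the same 6 libraries and are not independent of each other. The number above 0 was 28 without dorsal stress 3, 30 without dorsal stress 1 and 28 in the fit that included the choroid plexus score. It was 35 after counts were thinned to the depth of the shallowest library. The groups did not overlap for 4 genes, CACNG3, DLG4, SHISA6 and GRIK5, all higher under stress, against 2.38% of all genes in that direction.

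**Figure D4:**
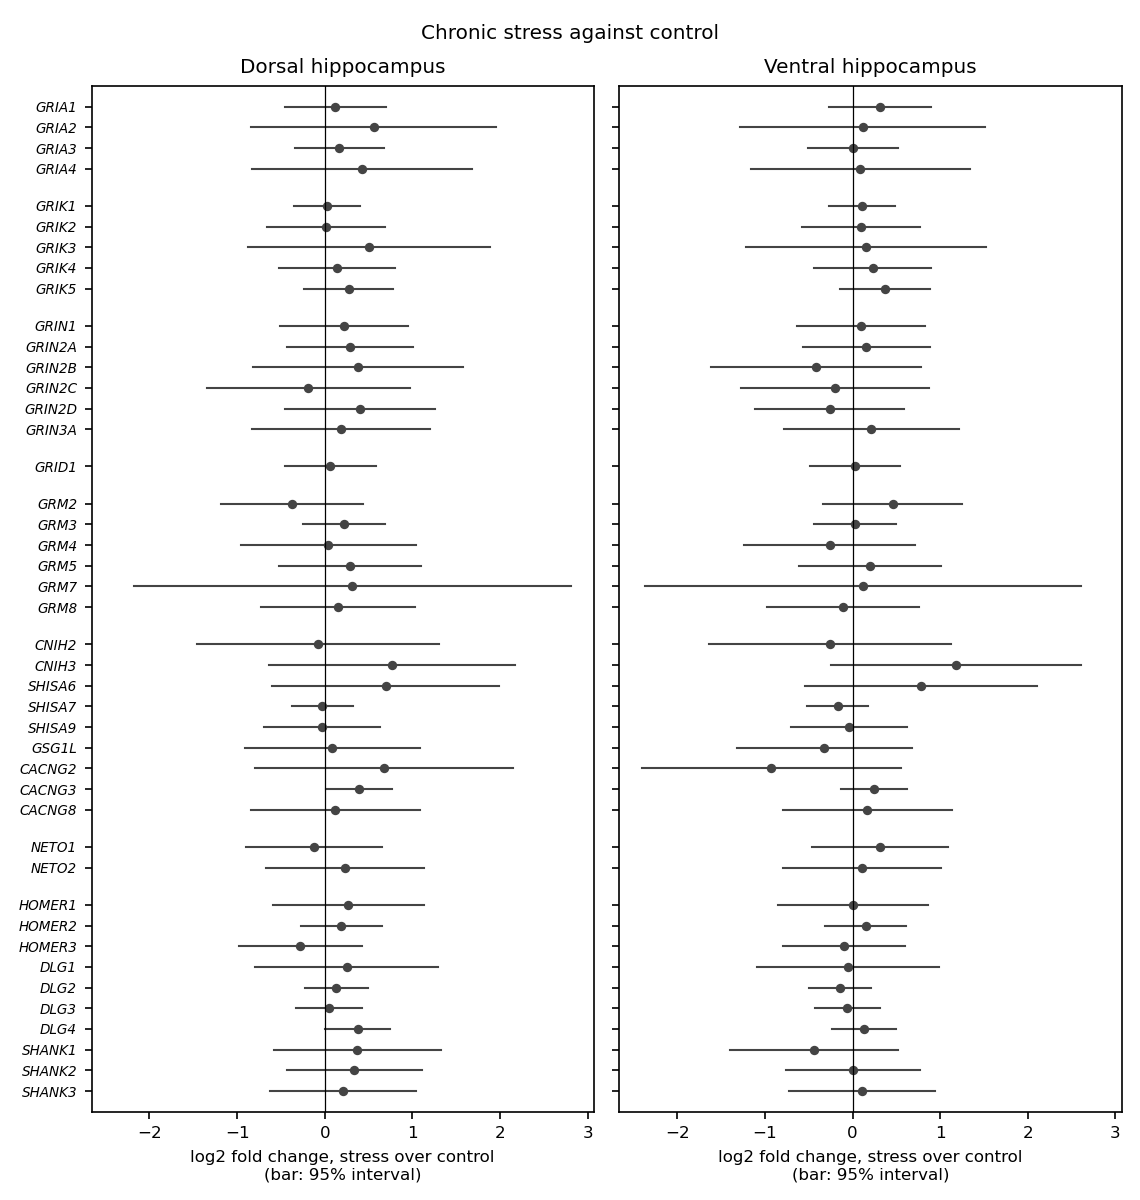
Log2 fold change, stress over control, with its 95% confidence interval for each of the 43 genes in the dorsal and in the ventral hippocampus. No gene is called in either region, and values above 0 number 36 of 43 in dorsal and 28 of 43 in ventral tissue.

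In the ventral hippocampus stress again gave 0 called genes in edgeR, 0% of all genes, and 0 of the 43 had an unadjusted p under 0.05, against 0.797% of all genes. DESeq2 called 1 gene in all, not one of the 43. CNIH3 had the smallest p, at 0.813, 0.435 and 0.984 CPM in stressed and 0.0962, 0.298 and 0.588 CPM in control ewes (1.18 ± 0.65), from 4 to 33 raw counts a library. GRIK5, a high-affinity kainate subunit, had 75.2, 56.7 and 48.1 CPM in stressed and 46.5, 58.7 and 34.0 CPM in control ewes (0.37 ± 0.23). CACNG3 had 114.8, 95.5 and 109.4 CPM in stressed and 78.4, 95.4 and 96.0 CPM in control ewes (0.24 ± 0.17). All 3 overlapped between the groups, and each has an adjusted p of 1.00 in edgeR.

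None of the core subunits was called in ventral tissue, with log2 fold changes of 0.32 ± 0.26 for GRIA1, 0.11 ± 0.63 for GRIA2, 0.10 ± 0.33 for GRIN1, 0.16 ± 0.33 for GRIN2A, -0.42 ± 0.54 for GRIN2B and 0.13 ± 0.17 for DLG4. The 3 genes called between regions were at -0.11 ± 0.39 (GRM8), -0.26 ± 0.44 (GRM4) and -0.20 ± 0.49 (GRIN2C). SHISA7 was the only gene of the 43 whose groups did not overlap, at 120.8 to 135.9 CPM in stressed and 137.2 to 152.3 CPM in control ewes, against 1.49% of all genes in that direction. Of the 43 values 28 lay above 0, against 45.6% of all genes. The number was 16 without ventral stress 3, 21 without ventral control 2 and 33 without ventral control 1 and 3.

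The stress effects of the 2 regions were compared as a difference, dorsal minus ventral, and again 0% of genes were called in edgeR, with 0 of the 43 and 46 of all genes at an unadjusted p under 0.05. DESeq2 called none. CACNG2, the regulatory protein that carries AMPA receptors to the synapse and is strong in rodent cerebellum, had the smallest p. It had 57.7, 15.9 and 15.4 CPM in dorsal libraries of stressed and 23.0, 13.5 and 19.2 CPM in those of control ewes, and 17.0, 19.8 and 23.2 CPM in ventral libraries of stressed and 80.2, 18.5 and 15.1 CPM in those of control ewes. The high values were dorsal stress 1 and ventral control 1, and the difference was 1.60 ± 0.94. It was 0.68 without dorsal stress 1 and 0.42 without ventral control 1. GRM2 followed at -0.83 ± 0.51.

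SHANK1, a scaffold deep in the postsynaptic density, was next. It had 332.3, 154.8 and 171.2 CPM in dorsal libraries of stressed and 248.4, 115.7 and 144.1 CPM in those of control ewes, and 160.5, 243.2 and 207.8 CPM in ventral libraries of stressed and 445.5, 215.1 and 166.3 CPM in those of control ewes. Library 1 was the highest of its group except in ventral stress, and the difference of the stress effects was 0.81 ± 0.61. It was 0.38 without dorsal stress 1 and 0.28 without ventral control 1. These 3 genes each had an adjusted p of 1.00 in edgeR.

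Libraries of the same group differed more than the groups did for several genes. In ventral control, 28 of 43 genes differed by over 2-fold between the highest and lowest library, against 58.6% of all genes, with a median of 2.44-fold for the set and 2.29-fold for all genes. In dorsal stress, dorsal control and ventral stress, 13, 8 and 14 genes did so, against 40.1%, 30.0% and 36.1% of all genes. GRM7 was the extreme, with 0.457, 5.31 and 15.4 CPM in ventral control libraries 1 to 3, a range of 33.7-fold. CNIH2 ran the opposite way in the same libraries, at 412.8, 204.8 and 66.9 CPM.

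The direction of this spread was shared across all 4 groups by only part of the set. In all 4 groups, 15 of the 43 genes were highest in the library in which GRIA2 was highest, GRIA2 itself included, which also held for 22.2% of all genes. They were GRIA1, GRIA3, GRIA4, GRIK2, GRIK3, GRIN2A, GRIN3A, GRM5, GRM7, SHISA9, NETO2, HOMER1, DLG1 and SHANK2 beside GRIA2. Another 7 were lowest in that library in every group, namely GRIN1, GRIN2D, GRM4, CNIH2, CACNG8, HOMER3 and SHANK3, as were 21.6% of all genes. Both patterns were thus also found outside the set, and what they reflect was not tested.

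**Figure D5:**
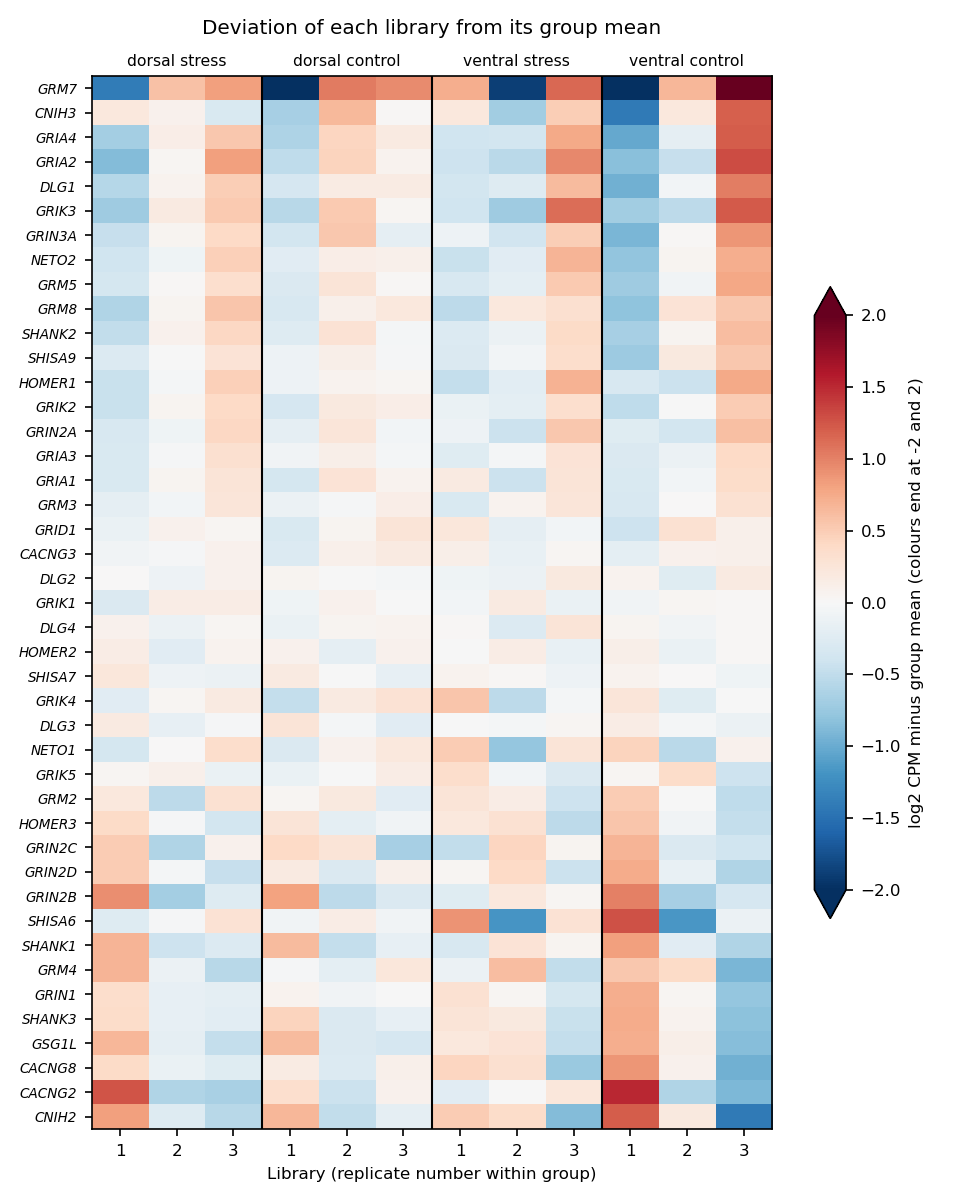
Heat map of log2 CPM minus the mean of its group for the 43 genes (rows) in the 12 libraries (columns). Rows are sorted by ventral control 3 minus ventral control 1; genes near one end, such as GRM7, are high and those near the other, such as CNIH2, low in ventral control 3.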

How the data were processed

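Per the labels' protocols, TriReagent was used for extraction, and the TruSeq stranded mRNA kit, which takes polyadenylated RNA, for the libraries. The deposited table holds raw whole-number counts per gene for 12 libraries, and per the submitters' processing notes the tools were featureCounts 2.0.0, TopHat2 2.1.1, bcl2fastq 2.20, SAMtools 1.9, Bowtie2 2.3.5.1 and FastQC, with no role or order recorded. Build, annotation and strand setting: not given in the sources used here, so no positions are printed and reads of a gene and of an antisense partner cannot be told apart. Column names were matched with the sample descriptions. Of the 33609 genes 9337 had no count.

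The analysis used edgeR 4.0.16 in R 4.3.3, with filterByExpr by group, TMM factors, a robust quasi-likelihood fit with 1 mean for each of 4 groups over all 12 libraries, F test, and Benjamini-Hochberg adjustment over 17806 genes, with 0.05 as the threshold. SEs were taken as the size of the log2 fold change over the root of F. 1 CPM was 12.2 to 50.8 counts a library. The same steps were also run on simulated counts, drawn independently and without the common axis seen within groups here. That run therefore cannot show how the steps perform on these libraries. No pair of libraries within a group agreed within sampling noise. Pools share ewes across regions, so p-values treat as independent libraries that are not fully so, and variation between ewes is averaged within pools.

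The members, gene lists and tests were chosen with earlier results of these data known. Named genes are those called in any of the 6 comparisons, the 3 with the smallest p in each, GRIA1, GRIA2, GRIN1, GRIN2A, GRIN2B and DLG4, and up to 8 called genes of the list of other glutamate synapse genes per comparison; values of further members serve to account for the set. Of the list entries found in the counts, 214 were matched by the symbol of the count table. Another 4 were matched through their gene ID in a RefSeq table of assembly ARS-UI_Ramb_v3.0. A gene in several lists is an entry in each. Deviations of same-numbered libraries from their group means correlated at 0.24 to 0.79 between stress and control of 1 region in all 6 pairs. Differently numbered pairs ran from -0.67 to 0.57, so the ranges overlapped. These values do not settle whether the numbers pair the libraries, and the labels do not say what the numbers mark. The main fit used no pairing, and a block for number was fitted only as an alternative. The block for number changed no call of a stress comparison. Alternatives were RLE factors, other filters, DESeq2 1.42.0, limma-voom (limma 3.58.1), blocks for replicate number and for pool, thinned counts, 2 covariates, fits of only the 2 groups compared, and leaving out each library in turn.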

Additional observations from a re-analysis of the deposited data

How the results depend on the processing

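Among the 43 genes, GRM8 remained called between regions over both conditions in all 23 alternatives (log2 fold change -2.85 to -1.78) and GRM4 in 22, the exception being the choroid plexus score as a covariate, whereas GRIN2C was called in 7. The 3 calls became 11 with DESeq2, 14 with the replicate block, 5 with the block by pool, 5 with the choroid plexus score, 23 with the first residual factor as a covariate, and 2 to 7 without 1 library. In control ewes the 1 call became 2 with DESeq2 and with the replicate block, 0 with limma-voom, with the choroid plexus score, with only the 2 groups compared and without ventral control 1 and 3, a setting chosen after seeing the data, 16 with the residual factor, and 0 to 1 without 1 library. In stressed ewes 0 calls became 2 with DESeq2, 1 with the replicate block, with the block by pool and with the choroid plexus score, 17 with the residual factor, and 0 to 1 without 1 library. No alternative called any of the 43 for stress or for the difference of stress effects. The residual factor was the main axis of variation left in these same counts after the group means were removed. Fitting it lowers the spread that the test uses, so its larger counts are no added support for the calls. It is included wherever alternatives are counted. Same-numbered libraries of the 2 regions correlated at -0.23 to 0.76 in their deviations, and differently numbered ones at -0.74 to 0.68. These values do not settle whether the numbers pair the regions, and the block by pool assumes that they do. Region values with a block are therefore given only here. GRIN2A and GRIA1 were among the genes called with the replicate block (adjusted p = 0.00652 and 0.0206) and with the block by pool (adjusted p = 0.0291 and 0.0450).

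Counts over all genes moved too: between regions 803 became 1558 with DESeq2, 1375 with the replicate block, 251 with the choroid plexus score, 3761 with the residual factor and 420 to 1091 without 1 library. In control ewes 178 became 728, 440, 3 and 2003 in the same 4 settings, 0 with only 2 groups, 46 without ventral control 1 and 3, and 2 to 319 without 1 library. In stressed ewes 79 became 580, 314, 48 and 1589, 27 with limma-voom, 0 with only 2 groups, 143 without ventral control 1 and 3, and 1 to 159 without 1 library. DESeq2 called 1 gene for stress in each region.

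The log2 fold change turned sign in at least 1 alternative for 13 of the 43 genes between regions, 27 for stress in dorsal, 32 for stress in ventral tissue and 35 when the 2 stress effects were subtracted; no turned value was called. Between regions these were CACNG2, CACNG3, DLG2, GRIA2, GRIA3, GRIK1, GRIK5, GRIN2B, GRIN2D, GRM5, GRM7, GSG1L and SHANK1, with the widest range for GRM7 (-2.08 to 0.89). Of the genes named by rule, the turned values were as follows. For stress in dorsal tissue GRM4 was -0.071 with the replicate block, -0.70 with the choroid plexus score and -0.054 with the residual factor, GRIN1 -0.14 and GRIN2B -0.17 with the choroid plexus score, and GRIN2C 0.024 in thinned counts. For stress in ventral tissue GRIA2 was -0.073 with the choroid plexus score, and GRIN2C 0.18 and GRIN2B 0.45 without ventral control 1 and 3. GRIA2 between regions was 0.23 without these 2 libraries. Without 1 library, the dorsal stress values ran from -0.033 to 0.27 for GRIA1, -0.24 to 0.91 for GRIN2B, -0.49 to 0.07 for GRIN2C, -0.38 to 0.27 for GRM4 and -0.15 to 0.40 for GRM8. The ventral stress values ran from -0.005 to 0.26 for DLG4, -0.54 to 1.07 for GRIA2, -0.20 to 0.54 for GRIN1, -0.15 to 0.53 for GRIN2A, -0.71 to 0.28 for GRIN2B, -0.43 to 0.23 for GRIN2C and -0.41 to 0.18 for GRM8. The region values ran from -0.41 to 0.32 for GRIA2 and -0.19 to 0.47 for GRIN2B. The causes were not tested.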

Other observations

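ARC, an immediate early gene whose protein removes AMPA receptors from synapses, was chosen here after its values were seen. It had 3.87, 4.70 and 2.33 CPM in ventral libraries of stressed ewes and 1.18, 1.24 and 1.37 CPM in ventral libraries of control ewes, so the groups did not overlap. Its log2 fold change, stress over control, was 1.52 ± 0.40 (edgeR adjusted p = 1.00), and it did not pass the test over all genes.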
